A study of Mus musculus with 24 samples.

Results

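Cirbp and Rbm3 encode the cold-inducible RNA-binding proteins CIRBP and RBM3, and their transcripts were followed here in the whole mouse cochlea over day and night, noise and loss of the adrenal glands. They are 2 of the 23420 gene entries in the deposited count table, and both passed the filter on low counts that 16607 entries passed. The genes were taken by name, and they were chosen on their values over the groups of this study. Their levels and differences below are therefore a description, with standard errors and without a test. RNA came from whole cochleae of CBA/Sca mice aged 12 weeks, in 24 libraries that fall into 8 groups of 3. The groups cross day or night, noise or sham exposure, and adrenalectomy (ADX, the surgical removal of the glands that secrete corticosterone) or a sham operation. All 8 groups share strain, age and tissue, and every control group also carries a sham operation or a sham exposure. Noise of 6 to 12 kHz at 100 dB SPL lasted 1 h, and the series design places it at zeitgeber time (ZT, hours after lights-on) 3 for day and 15 for night, with collection 2 h later. The sample labels instead give ZT11 for every day library and ZT23 for every night library, and neither source resolves that conflict. The labels do not say that libraries of a group came from separate animals, so p-values may measure only the spread between these samples.

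CIRBP and RBM3 are small proteins that bind RNA through an RNA-recognition motif followed by a glycine-rich tail. Mild cooling of mammalian cells raises both, and warming lowers them. They act on translation, messenger RNA stability and the choice of polyadenylation sites, and CIRBP has been linked to the amplitude of the circadian clock through the transcripts of clock genes such as Clock. Body temperature of mice is higher in the night, their active phase, than in the day, and Cirbp and Rbm3 are known as transcripts that can follow daily temperature cycles. Cochlear cells hold a circadian clock of their own. Body temperature is not among the data analysed here.

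Cirbp lies on chromosome 10 at 80165985 to 80172786, plus strand, and Rbm3 on chromosome X at 8138975 to 8145880, minus strand, in GENCODE vM21 on GRCm38. GENCODE lists 7 transcripts of Cirbp, 2 of them protein-coding, 4 with a retained intron and 1 marked for nonsense-mediated decay. For Rbm3 it lists 11 transcripts, of which 6 are protein-coding. The counts are per gene, so a shift between productive and intron-retaining transcripts, a known mode of regulation in this family, could not be seen. An antisense gene, Rbm3os (entry 2900002K06Rik, chromosome X at 8145429 to 8147964), shares 94 of the 4698 exon bases of Rbm3, which is 2%. Its own entry held 5 to 19 counts per library, against at least 2416 for Rbm3.

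The upstream region of Cirbp is shown because it carries the element through which mild cold is known to act on this gene. It is the 189 bases before the start of the principal transcript at 80167778, at chr10:80167589-80167777 on the plus strand, taken from the RefSeq promoter table for GRCm38.p6. The first capitals mark the mild cold-response octamer TCCCCGCC. The other capitals mark 2 GC boxes, of which the second lies on the other strand, and 2 CCAAT boxes, of which the second likewise lies on the other strand.
Cirbp upstream region: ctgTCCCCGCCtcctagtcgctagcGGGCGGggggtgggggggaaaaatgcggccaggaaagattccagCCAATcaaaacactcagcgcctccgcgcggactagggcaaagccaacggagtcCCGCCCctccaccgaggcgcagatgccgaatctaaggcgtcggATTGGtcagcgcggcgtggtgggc
The octamer starts 186 bases before the principal start, and none of the marked elements overlap. Over both strands of 32817 promoter windows of 300 bases, 5.38% held TCCCCGCC, 35.6% held GGGCGG and 37.4% held CCAAT. The E-box CACGTG, bound by clock factors, was in 7.15% of the windows. The paired heat-shock half-sites TTCNNGAA and GAANNTTC were in 8.51% and 7.86%. None of these last 3 letter strings occurred in the 2 windows that the table lists for Cirbp.

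Library totals ran from 18894996 to 36108962 counts, and no library repeated another. Markers of the cochlea were present throughout: all 10 hair cell, 10 spiral ganglion neuron, 8 stria vascularis and 8 fibrocyte markers were in the table. The summed fibrocyte list stood at 5932 to 9365 CPM (edgeR's depth-scaled counts, with TMM normalisation), and the summed hair cell list at 294 to 466 CPM. Marrow and blood genes were also present, with a neutrophil and myeloid list at 6309 to 12855 CPM. A set of 3 libraries stood apart through transcripts of neighbouring tissue. Night noise ADX a held pituitary transcripts (9849 CPM summed over 6 genes, against a day median of 5.67), and the most cerebellar transcripts were in library b of day sham exposure sham-operated (295 CPM over 8 genes) and in library b of night noise sham-operated (269 CPM). Differences are given without these 3 libraries where that moves them by more than 1.5 times or changes their direction. In whole tissue, fewer cells of a type and less RNA per cell cannot be told apart.

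By day, Cirbp was measured at 74.9, 53.3 and 60.1 CPM in libraries a, b and c of the sham-exposed, sham-operated group. The sham-exposed ADX group by day had 63.7, 60.6 and 62.6 CPM. After noise by day, the sham-operated group had 78.4, 64.5 and 64.0 CPM and the ADX group 77.1, 59.9 and 54.6 CPM. Day groups that differed only in exposure or only in surgery overlapped. The means were 62.7 ± 11.05, 62.3 ± 1.59, 68.97 ± 8.16 and 63.8 ± 11.8 CPM (SD, n = 3 each). By night, the sham-exposed, sham-operated group had 46.2, 53.9 and 43.3 CPM. The sham-exposed ADX group by night had 59.6, 45.9 and 56.0 CPM. After noise by night, the sham-operated group had 37.6, 40.4 and 37.4 CPM and the ADX group 38.6, 50.9 and 60.9 CPM. The noise-exposed, sham-operated night group was the lowest of the 8 and one of the tightest (38.4 ± 1.67 CPM), and the noise-exposed ADX night group was the most spread by night (50.1 ± 11.2 CPM). Counts behind these values ran from 926 to 2105 per library.

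Rbm3 by day was measured at 160.3, 157 and 164 CPM in libraries a, b and c of the sham-exposed, sham-operated group. In the sham-exposed ADX group by day it stood at 137, 163 and 161 CPM. Noise by day gave 179, 193 and 171 CPM in the sham-operated group and 187, 229.8 and 213 CPM in the ADX group. At fixed surgery, each noise-exposed day group lay wholly above its sham-exposed day group. Of all genes, 8.19% did so in sham-operated and 12.2% in ADX libraries. In the night, the sham-exposed, sham-operated group had 126, 113 and 108 CPM. The night sham-exposed ADX group had 132, 138 and 128 CPM. Noise by night gave 127, 105 and 99.8 CPM in the sham-operated group and 107, 129 and 122 CPM in the ADX group. The 4 night groups sat close together, with means of 116 ± 9.13, 133 ± 4.92, 111 ± 14.4 and 119 ± 11.6 CPM (SD, n = 3 each, in the order given). The 4 day means were 160.2 ± 3.64, 154 ± 14.6, 181 ± 11.4 and 210.0 ± 21.6 CPM. CPM is not scaled by transcript length, so levels are compared within a gene and not between the pair.

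**Figure D1:**
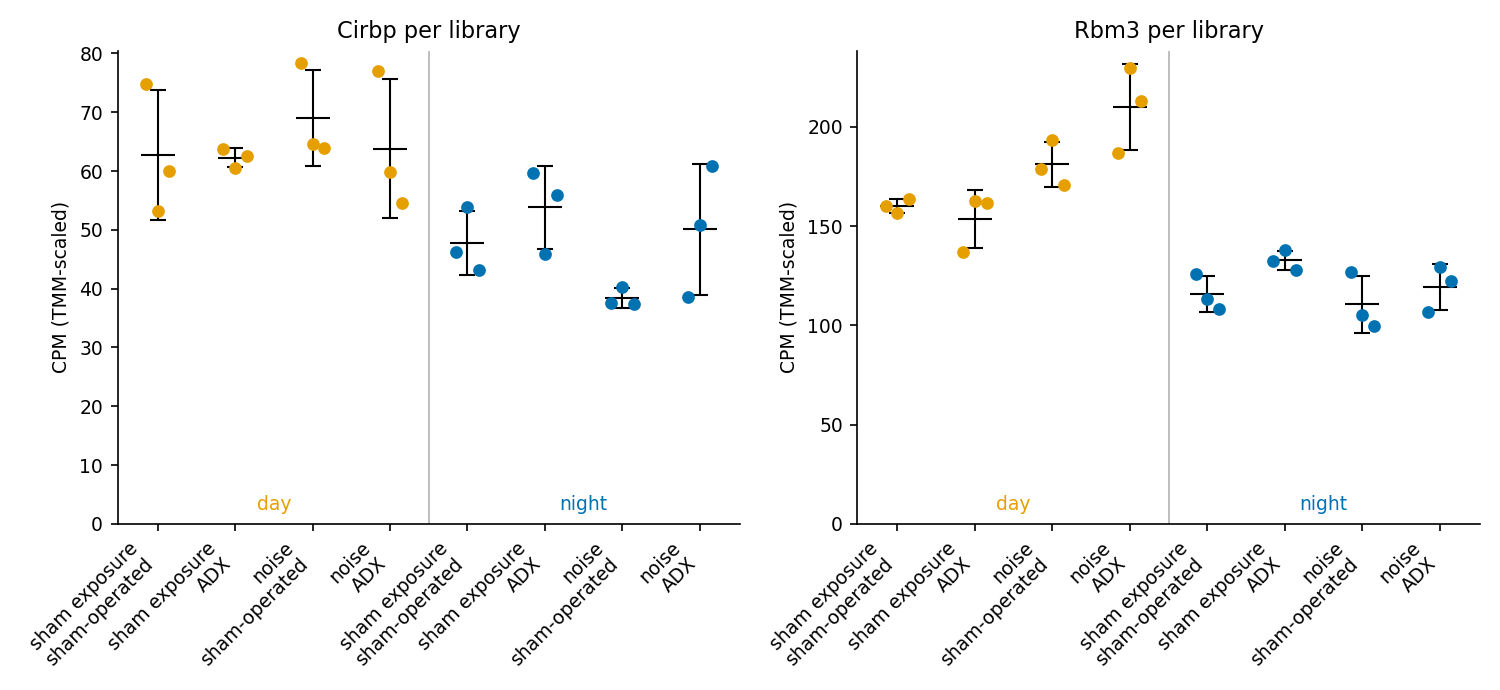
Levels of Cirbp (left) and Rbm3 (right) in CPM for each of the 24 libraries, by group; dots are libraries, horizontal lines the means and bars 1 SD (n = 3). For Rbm3 the 12 day libraries (orange) sit between 137 and 229.8 CPM and the 12 night libraries (blue) between 99.8 and 138 CPM, while for Cirbp the ranges run from 53.3 to 78.4 and from 37.4 to 60.9 CPM.

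In descending order of group means, Cirbp ran from day noise sham-operated through day noise ADX, day sham exposure sham-operated, day sham exposure ADX, night sham exposure ADX, night noise ADX and night sham exposure sham-operated to night noise sham-operated. Every day mean stood above every night mean. Of the 7 steps between neighbours in that order, only the step from the lowest day group to the highest night group (8.44 CPM) and the last step (9.36 CPM) were larger than the larger SD of the pair. Those were also the only neighbours whose libraries did not overlap, as for 8.39% and 6.67% of all genes. For Rbm3 the order began with day noise ADX, day noise sham-operated, day sham exposure sham-operated and day sham exposure ADX, and its night groups followed in the same order as those of Cirbp. Its first step (28.9 CPM), second step (20.9 CPM), the step from day to night (20.9 CPM) and the next one (13.3 CPM) were larger than the larger SD. Of these, the second alone had no overlap between libraries, as for 8.19% of all genes.

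Both transcripts were lower at night than by day. Averaged over the 4 combinations of exposure and surgery, the log2 difference of night minus day was -0.45 (SE 0.08) for Cirbp and -0.55 (SE 0.05) for Rbm3, which are ratios of 0.733 and 0.683. Cirbp measured 64.5 ± 8.22 CPM by day and 47.5 ± 8.55 CPM by night (SD, n = 12 each), with medians of 63.1 and 46.1 CPM. Its ranges overlapped, with 5 day libraries inside the night range and 4 night libraries inside the day range. Rbm3 measured 176 ± 25.99 CPM by day and 119.7 ± 12.4 CPM by night (SD, n = 12 each), with medians of 167 and 124 CPM. Its ranges barely touched: a single day library (sham exposure ADX a) lay under a single night library (sham exposure ADX b). Over all genes, 2.25% of the 16607 passed the edgeR quasi-likelihood test as lower at night and 3.76% as higher (Benjamini-Hochberg adjusted, threshold 0.05), and the median log2 difference was -0.0017. Since the pair was chosen on these contrasts, nothing is read from its place against that background. Leaving out any 1 library kept the averaged difference between -0.49 and -0.41 for Cirbp and between -0.58 and -0.53 for Rbm3.

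The size of the night difference varied with exposure and surgery. Among sham-exposed, sham-operated libraries it was -0.39 (SE 0.15) for Cirbp, and -0.24 without day library a of that group. Rbm3 there differed by -0.47 (SE 0.09), with all 3 night libraries below all 3 day libraries, which 7.07% of genes showed. Among sham-exposed ADX libraries the differences were the smallest, at -0.21 for both genes (SE 0.15 for Cirbp and 0.09 for Rbm3). The Cirbp libraries did not overlap there, as for 8.39% of genes, whereas the Rbm3 libraries did. The Cirbp value moved to -0.10 without night library b of that comparison.

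Noise-exposed, sham-operated libraries had the largest night difference of Cirbp, -0.85 (SE 0.15), a ratio of 0.557. Rbm3 differed there by -0.71 (SE 0.09). Neither gene's libraries overlapped, and 10.2% of all genes had night below day without overlap in this comparison. After noise in ADX libraries, Rbm3 had its own largest difference, -0.81 (SE 0.09), a ratio of 0.568 without overlap (6.61% of genes). Cirbp there differed by -0.35 (SE 0.15) with overlap. That value went to -0.19 without night library a, which held the pituitary transcripts, and to -0.51 without night library c, so that the 3 night libraries of that group do not fix it closely. The night difference of Cirbp in ADX minus that in sham-operated libraries was 0.50 (SE 0.22) after noise, and 0.33 without night noise ADX library c. After sham exposure it was 0.18 (SE 0.22), but 0.03 without day library a and 0.29 without day library b of the sham-operated group (0.29 also without the 3 libraries that stood apart). For Rbm3 the same quantity was 0.26 (SE 0.13) after sham exposure. After noise it was -0.11 (SE 0.13), with a change of sign to 0.0032 without night noise sham-operated library a, a value of -0.19 without day noise ADX library a and -0.06 without the 3 libraries.

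**Figure D2:**
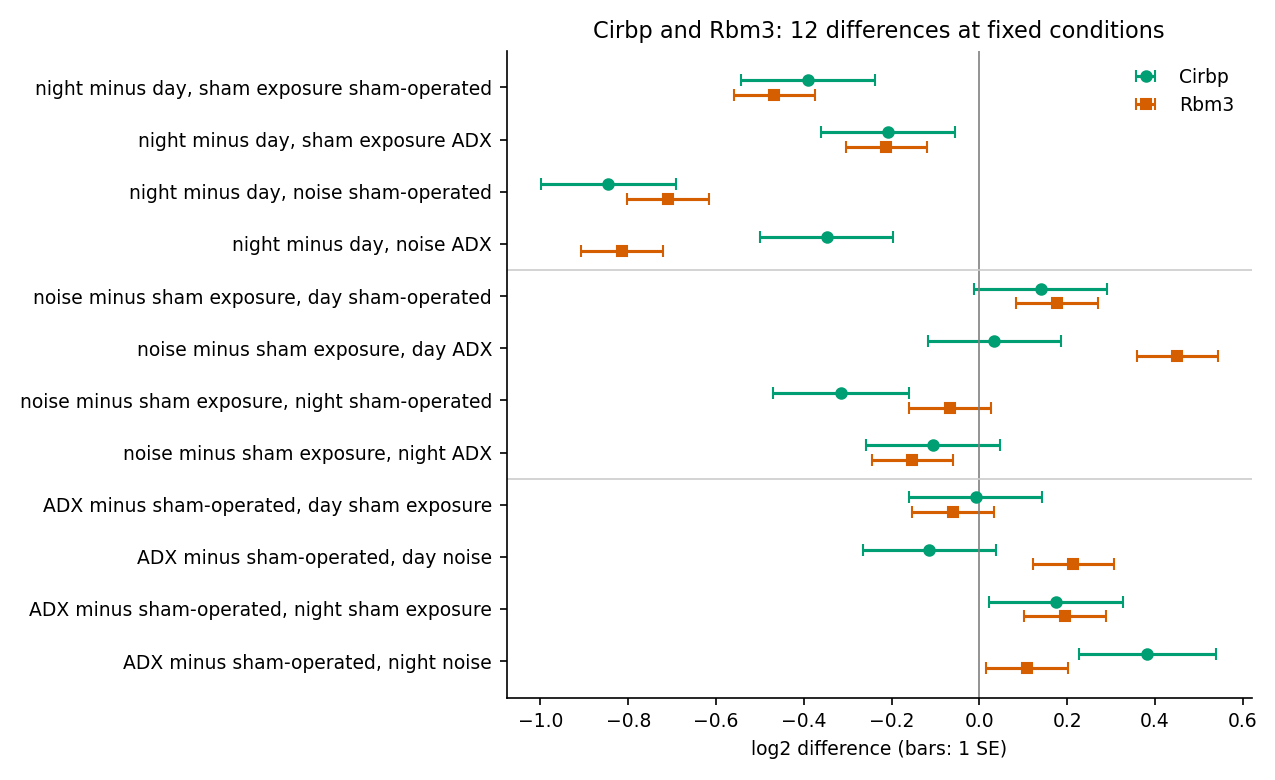
Log2 differences of Cirbp (circles) and Rbm3 (squares) for night against day, noise against sham exposure and ADX against sham operation, each at fixed levels of the other factors; points are estimates and bars 1 SE. All 8 night differences are negative, from -0.85 to -0.21, and the Rbm3 difference for noise in day ADX libraries, 0.45, stands apart from that of Cirbp, 0.03.

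Markers of cell types did not separate day from night as sums. The macrophage list ran from 574 to 911 CPM by day and from 577 to 791 CPM by night, and 3 of its 8 genes fell at night: Aif1 (adjusted p = 0.0194, edgeR), Cx3cr1 (0.00296) and Mrc1 (0.00715), named after their values were seen. Their log2 differences were -0.30 for Aif1, -0.25 for Cx3cr1 and -0.25 for Mrc1, and the other 5 macrophage markers did not pass. Over all genes, 2.25% passed as lower at night and 3.76% as higher. The hair cell, glia, fibrocyte, neutrophil, lymphoid, erythroid and proliferation lists, with 57 genes, were joined as lists without a gene that passed in edgeR. Their edgeR count of 0 was therefore fixed in advance. Of the 57 genes, 0 passed in DESeq2 and 3 were lower with voom, with 6 higher and 4 lower at an unadjusted p under 0.05. The spiral ganglion, bone and skeletal muscle lists had 1 higher gene each in edgeR, and the stria list had 1 lower gene. Of the 8 stria genes, 2 were lower in DESeq2 and 2 in voom, with 4 lower and 0 higher at an unadjusted p under 0.05. The bone list had 2 higher in DESeq2, 1 in voom and 3 at an unadjusted p under 0.05. The part of these shifts in the levels of Cirbp and Rbm3 was not tested.

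The largest noise difference of Rbm3 was by day in ADX libraries, and that of Cirbp by night in sham-operated libraries. Averaged over period and surgery, the log2 difference of noise minus sham exposure was -0.06 (SE 0.08) for Cirbp and 0.10 (SE 0.05) for Rbm3. The Cirbp value ranged from -0.10 without night noise ADX library c to -0.02 without night noise ADX library a. Of all genes, 2.4% passed as higher after noise and 2.4% as lower. By day, Rbm3 was higher after noise in both surgery groups without overlap. The difference was 0.18 (SE 0.09) in sham-operated libraries, where 8.19% of genes were higher without overlap, and 0.45 (SE 0.09), a ratio of 1.37, in ADX libraries, where 12.2% were. By night, Rbm3 differed by -0.07 (SE 0.09) in sham-operated and by -0.15 (SE 0.09) in ADX libraries, with overlap in both. The sham-operated value ranged from -0.18 without night noise library a to -0.00027 without night sham exposure library a, and the ADX value was -0.08 without night noise library a. Without the 3 libraries that stood apart, these were -0.03 and -0.08. The noise difference of Rbm3 by night minus that by day was -0.60 (SE 0.13) in ADX libraries and -0.24 (SE 0.13) in sham-operated ones.

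The day noise ADX group, in which Rbm3 was highest, also had high sums of several blood lists. Its erythroid list (8 genes, of which 6 were tested) stood at 3809 to 4232 CPM, against 2596 to 3201 CPM in day sham exposure ADX. Its macrophage list stood at 705 to 911 CPM against 612 to 639 CPM, and its proliferation list at 2411 to 2965 CPM against 2235 to 2321 CPM. Neutrophil and myeloid genes reached 7093 to 12855 CPM against 6340 to 8653 CPM. Hair cell markers were lower, at 294 to 349 CPM against 366 to 434 CPM. The lymphoid list was lower, at 632 to 726 CPM against 760.0 to 917 CPM. The part of these lists in the Rbm3 value was not tested.

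Cirbp had its clearest noise difference by night in sham-operated libraries, -0.31 (SE 0.15), with all 3 noise libraries below all 3 sham exposure libraries, as for 6.67% of genes. By day in the same surgery group the difference was 0.14 (SE 0.15), and it ranged from 0.04 without sham exposure library b to 0.29 without sham exposure library a (0.03 without the 3 libraries that stood apart). In ADX libraries the noise difference of Cirbp was 0.03 (SE 0.15) by day and -0.11 (SE 0.15) by night. Neither had a fixed sign: the first went from -0.12 without noise library a to 0.14 without noise library c, and the second from -0.27 without noise library c to 0.05 without noise library a, the library with pituitary transcripts. The noise difference of Cirbp by night minus that by day was -0.45 (SE 0.22) in sham-operated libraries. In ADX libraries it was -0.14 (SE 0.22), but -0.31 without night noise library c, 0.01 without night noise library a and 0.02 without the 3 libraries that stood apart.

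Adrenalectomy went with differences that were small on average in both genes and varied between conditions. Averaged over period and exposure, the log2 difference of ADX minus sham operation was 0.11 for both genes (SE 0.08 for Cirbp and 0.05 for Rbm3), where 1.68% of all genes passed as higher and 1.52% as lower. The Cirbp value was 0.07 without day noise ADX library a. At night without noise, Rbm3 was higher in ADX by 0.20 (SE 0.09), with no overlap between libraries (11.4% of genes), and Cirbp differed by 0.17 (SE 0.15), a value that ranged from 0.09 without ADX library a to 0.28 without ADX library b. After noise at night, Cirbp differed by 0.38 (SE 0.15), with overlap through ADX library a. This value was 0.22 without ADX library c and 0.58 without the 3 libraries that stood apart. Rbm3 differed there by 0.11 (SE 0.09), between 0.04 without sham-operated library c and 0.22 without sham-operated library a. By day without noise the differences were -0.0087 for Cirbp and -0.06 for Rbm3 (SE 0.15 and 0.09). The Cirbp value was -0.11 without the 3 libraries that stood apart. The signs changed without sham-operated library a (0.14 for Cirbp) and without ADX library a (0.02 for Rbm3). By day after noise, Rbm3 was higher in ADX by 0.21 (SE 0.09) and Cirbp differed by -0.11 (SE 0.15), both with overlap. The Cirbp value was -0.27 without ADX library a and -0.0088 without sham-operated library a.

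Marker lists also moved with ADX. All 8 lymphoid markers were higher with ADX in edgeR, DESeq2 and voom (adjusted p under 0.05), and 3 of 10 hair cell markers were lower in edgeR. Over all genes, 1.68% passed as higher with ADX and 1.52% as lower in edgeR. In night sham exposure, where Rbm3 was higher in ADX without overlap, the lymphoid sum stood at 743 to 960.3 CPM in ADX and at 481 to 534 CPM in sham-operated libraries. The hair cell sum stood there at 374 to 395 against 400.2 to 457 CPM, and the bone sum at 3412 to 3694 against 2159.5 to 2990 CPM. The part of these lists in the Rbm3 and Cirbp values was not tested.

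Cirbp and Rbm3 followed one another across groups but not within the day. Over the 8 group means, Pearson's r was 0.882 (Spearman 0.952), a value that includes the shared difference between day and night. Among the 12 day libraries r was -0.07 (Spearman 0.03), and among the 12 night libraries it was 0.552 (Spearman 0.531). After each library was centred on its group mean, r over the 24 libraries was -0.03 (Spearman -0.05). These coefficients are descriptions of libraries that share a period, and none was tested. In the plot of the pair, the day noise ADX libraries b and c combined the 2 highest Rbm3 values, 229.8 and 213 CPM, with Cirbp values of 59.9 and 54.6 CPM that lay under the day median.

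**Figure D3:**
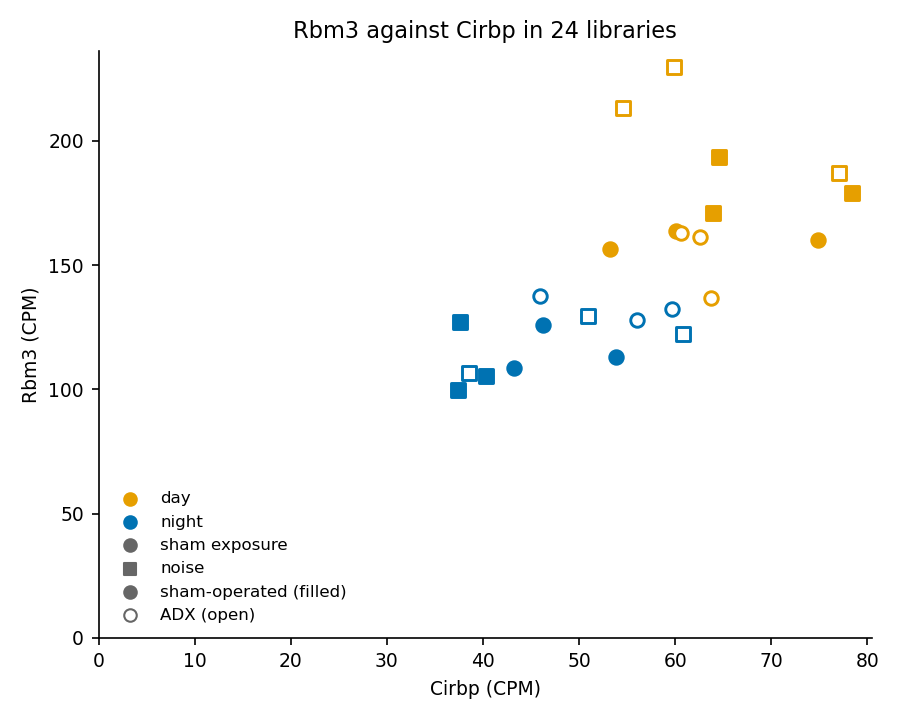
Rbm3 against Cirbp, both in CPM, in the 24 libraries; colour gives the period, shape the exposure and fill the surgery. Night libraries lie to the lower left, and within the 12 day libraries the levels of the 2 genes show no common trend (r = -0.07).

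Genes that most resembled each transcript were taken by Pearson's r of log2 CPM over the 24 libraries, among the 12045 genes whose log2 CPM averaged 3 or more. All of these r values contain the day and night difference, so r within each period is given beside them, or its lowest value for a group, as a description. Among the genes most like Cirbp was Thra, the thyroid hormone receptor alpha (r = 0.863, 0.557 by day and 0.810 by night). Rlbp1 (0.852), a retinoid-binding protein, the linker histone gene Hist1h1c (0.845), Fibp (0.834) and Mpdu1 (0.833), a gene of glycan synthesis, were close behind, all with r of at least 0.557 within either period. The most opposed to Cirbp were the clock gene Per2 (-0.871, -0.498 by day and -0.799 by night), the endoplasmic reticulum chaperone gene Calr (-0.866, -0.770 by day and -0.729 by night) and its neighbour in function Dnajb11 (-0.858, -0.701 by day and -0.866 by night). Calr measured 763 CPM by day and 956 CPM by night.

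Rbm3 was most like Stab2, a scavenger receptor of sinusoidal endothelium (r = 0.879, 0.743 by day and 0.414 by night). The clock repressor Nr1d1 came second (0.864), but with 0.582 by day and 0.312 by night. Next were the splicing factor Tra2b (0.856, 0.707 by day and 0.622 by night), the lipase Lpl (0.855, 0.444 by day and 0.599 by night), the macrophage receptor Timd4 (0.854, 0.735 and 0.528) and the sorting nexin Snx4 (0.854, 0.569 and 0.732). Among the most opposed genes were Car11 (-0.904, -0.744 by day and -0.627 by night) and Cryab (-0.896), a small heat-shock protein. For Cryab, r was -0.869 among night libraries and -0.426 among day libraries. Of the marker sums, those of hair cells (-0.475), macrophages (0.461), proliferating cells (0.456) and erythroid cells (0.408) had the r of largest size with Rbm3 over the 24 libraries. With Cirbp it was that of the stria vascularis (0.578). For the marker sums r was not computed within a period, so these values contain the day and night difference. Cirbp stood at place 122 of the genes like Rbm3, and Rbm3 at place 116 of those like Cirbp, both at r = 0.701.

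Heat-shock genes, many of which warming induces through heat-shock factors, and chaperone genes were among those that rose at night. Of 22 heat-shock factor targets and chaperones tested, 10 rose at night, 0 fell (also 0 at an unadjusted p under 0.05 and in DESeq2 and voom) and 12 did not pass, against 3.76% and 2.25% of all genes. The median log2 difference of the list was 0.18. This list and those below were drawn up with earlier results of these data known, so their counts against all genes are descriptions. Cryab rose from 243 ± 14.9 CPM by day to 309.9 ± 26.5 CPM by night (SD, n = 12 each), a log2 difference of 0.35 (SE 0.03, adjusted p = 3.03e-06, edgeR). Hspb1, another small heat-shock protein, had the largest change, from 84.0 ± 24.6 to 129.98 ± 37.4 CPM, or 0.63 (SE 0.11, adjusted p = 0.00241). Hspa4l, of the HSP110 family, rose by 0.34 (adjusted p = 0.000196, edgeR) and the co-chaperone Fkbp4, which sits in complexes with steroid receptors, by 0.23 (adjusted p = 0.000266). Hsp90ab1 rose by 0.29, its activator Ahsa1 by 0.20, the endoplasmic reticulum chaperone Hspa5 by 0.21 and the constitutive Hspa8 by 0.24. The classic inducible genes did not pass: Hspa1a differed by -0.16 (adjusted p = 0.734), Hspa1b by -0.09 (0.874), Hsph1 by 0.17 (0.362) and Dnajb1 by 0.12 (0.361).

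Levels by group show that the night rise was uneven. After noise in ADX, the mean of Hspa8 was 2843 CPM by day and 2822 CPM by night. There Ahsa1 went from 151.3 to 152.7, Hspa5 from 1058 to 1078 and Hspb1 from 104 to 113 CPM. In the same groups Cryab went from 236 to 314, Fkbp4 from 280 to 316, Hspa4l from 159 to 192 and Hsp90ab1 from 2068 to 2252 CPM. Cryab libraries lay at 221 to 269 CPM over all 12 day libraries. At night they lay at 303 to 330.1 CPM without noise in sham-operated mice, at 263 to 288 CPM in sham-exposed ADX, at 309 to 357 CPM after noise in sham-operated and at 302 to 330.5 CPM after noise in ADX. Of the 8 genes named above that rose, 6 had their lowest night mean in the sham-exposed ADX group (Cryab, Hspa4l, Fkbp4, Hspb1, Hsp90ab1 and Hspa5), and 2 in the noise-exposed ADX group (Ahsa1 and Hspa8). Hspa4l without noise at night stood at 244 ± 11.1 CPM in sham-operated and at 175 ± 11.5 CPM in ADX libraries (SD, n = 3). Over all conditions Hspa4l was the 1 gene of the 22 that fell with ADX, by 0.18 (adjusted p = 0.047, edgeR), and it passed in 5 of the 24 fits that each left out 1 library and did not pass with libraries of the same letter as a block (adjusted p = 0.054). Over all genes, 1.52% passed as lower with ADX. Noise changed 0 of the 22 genes in edgeR, DESeq2 and voom, with 2 higher at an unadjusted p under 0.05.

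The count of 10 fell to 6 in each of 6 fits that left out 1 library, and it ran from 6 to 12 over the 24 such fits. Those 6 libraries were day noise sham-operated a, night noise ADX a, night noise sham-operated b, day sham exposure ADX b, night sham exposure ADX b and night sham exposure sham-operated c. Hspa8 passed in 15 and Hspa5 in 16 of the 24 fits, whereas Cryab, Hspb1, Hspa4l, Fkbp4, Hsp90ab1 and Ahsa1 passed in all 24.

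**Figure D4:**
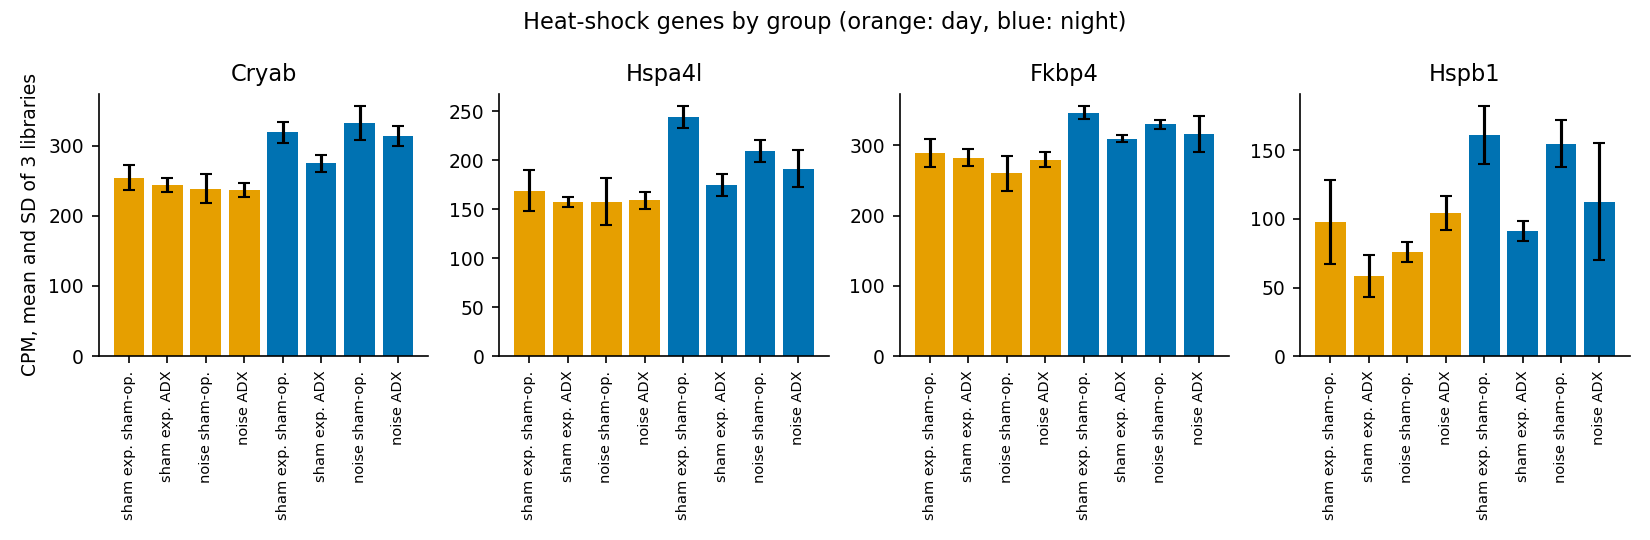
Levels of Cryab, Hspa4l, Fkbp4 and Hspb1 in CPM by group; bars are means of 3 libraries and lines 1 SD, with day in orange and night in blue. In each panel the lowest of the 4 night bars is the sham-exposed ADX group, which for Hspa4l stands at 175 against 244 CPM in sham-operated libraries.

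Splicing regulators that respond to body temperature were the second group of interest, since CDC-like kinases gain activity on cooling and phosphorylate SR proteins. Of 18 kinases and SR proteins, 3 rose at night (Clk3, Clk1 and Tra2a), 1 fell (Tra2b) and 14 did not pass, against 3.76% higher and 2.25% lower over all genes. DESeq2 and voom each called 4 higher and 2 lower, and the lower count was also 2 without day noise ADX a, night noise ADX b or night noise sham-operated a. The median of the list was 0.04. Clk1 measured 227 ± 14.4 CPM by night and 198 ± 19.2 CPM by day (SD, n = 12 each), a log2 difference of 0.20 (adjusted p = 0.0106, edgeR). Clk3 rose by 0.14 (adjusted p = 0.00458, edgeR), and Tra2a by 0.15 (adjusted p = 0.0357), although Tra2a passed in only 10 of the 24 fits that left out 1 library. Tra2b, which resembled Rbm3 above, fell by 0.19 (adjusted p = 0.00174, edgeR), from 150.4 ± 11.6 to 132 ± 7.95 CPM. Clk4 (0.10, adjusted p = 0.124) and Hnrnph1 (-0.0032, adjusted p = 0.961) did not pass. With noise or ADX, 0 of the 18 passed in edgeR, DESeq2 or voom. At an unadjusted p under 0.05 edgeR had 3 higher and 1 lower after noise and 2 higher with ADX.

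Clock genes give the phase against which the pair was measured. Of 20 core clock and output genes, 6 rose and 6 fell at night, and 8 did not pass, against 3.76% and 2.25% of all genes. The largest change was that of Nr1d1, a repressor of Arntl, which fell by 1.70 on the log2 scale, from 119.5 ± 22.3 to 37.5 ± 10.8 CPM (adjusted p = 1.42e-11, edgeR). Per2 rose by 0.98, Cry1 by 0.78, Per3 by 0.44 and Tef by 0.23. Dbp fell by 0.73, Npas2 by 0.44 and Arntl by 0.22 (passed in 18 of the 24 fits that left out 1 library). In ADX libraries, Npas2 went from 8.05 by day to 8.71 CPM by night after sham exposure, and from 7.31 to 7.44 after noise. In sham-operated libraries it fell from 14.68 to 7.03 and from 8.98 to 4.97 CPM. Arntl went from 15.26 to 16.01 and 19.92 to 19.37 CPM in ADX, and from 22.03 to 17.48 and 21.34 to 14.49 in sham-operated. In sham-exposed ADX, Per3 went from 107.2 to 108.4 and Tef from 212.9 to 206.1 CPM, and elsewhere both means rose. Clock itself, whose transcript CIRBP has been reported to bind, did not pass (0.04, SE 0.04, adjusted p = 0.582, edgeR), at 59.2 ± 4.81 CPM by day and 60.95 ± 4.33 CPM by night. Noise raised 5 clock genes, among them Per1 (0.63), Bhlhe40 (0.47), Gm129 (the symbol in the table for Ciart, 0.39), Nfil3 (0.35) and Nr1d1 (0.29), and lowered Bhlhe41 (-0.28) and Npas2 (-0.39), against 2.4% of all genes in each direction. Without day noise sham-operated c the count lowered was 5. Nr1d1 was higher after noise in day ADX (86.8 to 135.6 CPM) and in night sham-operated libraries (23.2 to 38.8 CPM). Its mean went from 131.5 to 124.2 CPM in day sham-operated and from 45.8 to 42.2 CPM in night ADX libraries. With ADX, Dbp rose by 0.31 and Bhlhe41 fell by 0.18, calls that passed in 8 and 9 of the 24 fits that left out 1 library, against 1.68% and 1.52% of all genes. Per2, the gene most opposed to Cirbp, stood at 109 ± 16.3 CPM at night without noise in sham-operated libraries and at 70.6 ± 7.68 CPM in ADX libraries (SD, n = 3). The averaged ADX difference of Per2 did not pass (-0.22, adjusted p = 0.37, edgeR).

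Reported regulators, partners and target transcripts of CIRBP and RBM3 mostly did not pass at night. Of 17, 1 fell, Ddx3x, an RNA helicase (-0.11, adjusted p = 0.0154, edgeR), and 0 rose (1 at an unadjusted p under 0.05, and 0 in DESeq2 and voom). Over all genes, 2.25% passed as lower at night and 3.76% as higher. Ntrk2, the BDNF receptor that has been placed upstream of Rbm3 in neurons, differed by -0.07 (adjusted p = 0.571), and Rtn3, whose translation RBM3 promotes in neurons, by 0.03 (adjusted p = 0.682). After noise, 2 rose and 1 fell, against 2.4% of all genes in each direction. Ptgs2, the inducible cyclooxygenase, rose from 3.55 ± 0.904 to 7.77 ± 2.66 CPM (SD, n = 12 each), a log2 difference of 1.10 (adjusted p = 9.24e-07, edgeR). Ddx3x rose by 0.12 and Dyrk1b, a kinase reported as a binding partner of CIRBP, fell by 0.19. With ADX, 0 of the 17 passed in edgeR, DESeq2 or voom, with 1 higher and 2 lower at an unadjusted p under 0.05. The lists count transcripts and say nothing of translation or protein.

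Few relatives of the pair changed. Among 8 cold-shock domain proteins, a family unrelated in fold to CIRBP and RBM3, 0 passed in any of the 3 comparisons in edgeR, DESeq2 or voom, and 1 was lower with ADX at an unadjusted p under 0.05. Ybx1 differed by 0.03 (SE 0.03) between night and day. Of 17 tested glycine-rich RNA-recognition-motif relatives and hnRNPs, 2 fell at night, against 2.25% of all genes. Hnrnpd, an RNA-binding protein that acts on mRNA decay, fell by 0.16 (adjusted p = 0.0192, edgeR), but did not pass without the 3 libraries that stood apart (adjusted p = 0.0538). Hnrpdl, the symbol in the table for Hnrnpdl, rose after noise by 0.14 (adjusted p = 0.0209, edgeR), as 2.4% of all genes did. Rbmx, among the closest relatives of the pair by domain layout, did not pass at night (-0.09, adjusted p = 0.123).

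Other genes with the Rbm name, which encode RNA-binding proteins of varied function, had 42 entries in the table and 38 tested. At night 1 rose (Rbm12b1 by 0.30) and 2 fell (Rbm34 by 0.21 and Rbm12 by 0.13, neither of which passed without the 3 libraries that stood apart), and 35 did not pass, a share near that of all genes. Their median log2 difference was -0.0060. Noise changed 0 of the 38 in edgeR, DESeq2 and voom, with 1 higher and 2 lower at an unadjusted p under 0.05. With ADX, Rbm12 rose by 0.15 (adjusted p = 0.0226, edgeR) and Rbm47 fell by 0.19 (adjusted p = 0.036), against 1.68% and 1.52% of all genes. The night call of Rbm12 passed in 14 of the 24 fits that left out 1 library and the ADX call of Rbm47 in 10.

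**Figure D5:**
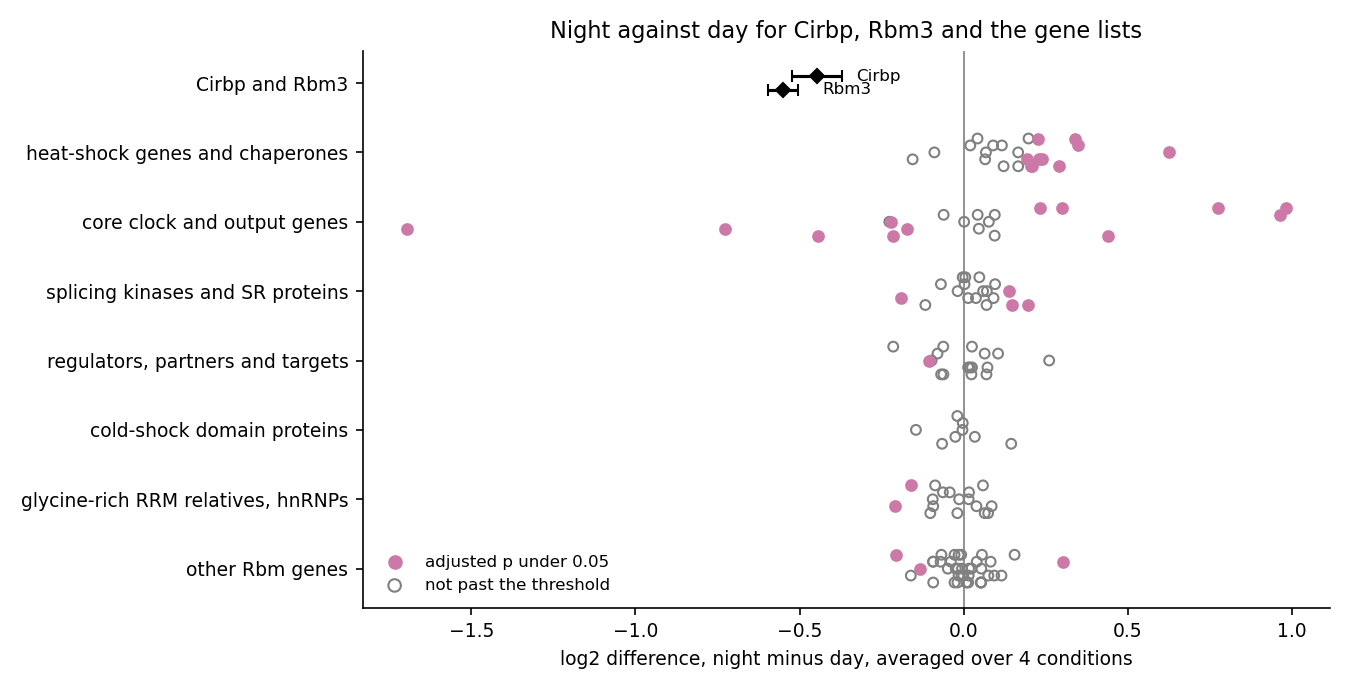
Log2 difference of night minus day, averaged over the 4 combinations of exposure and surgery, for Cirbp and Rbm3 (diamonds with 1 SE) and for each gene of the 7 lists (circles, filled where the adjusted p was under 0.05). Heat-shock genes and chaperones lie mostly to the right with 10 of 22 filled, clock genes spread to both sides, and the other lists gather near 0.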

How the data were processed

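RNA of whole cochlea was sequenced in 24 libraries as 50-base single reads, from 300 ng of RNA per library with a stranded poly-A kit, in pools of 6, per the labels' protocols. The deposited table holds raw counts per gene symbol, made by the authors before any normalisation. TopHat2 2.0.11, HTSeq 0.6p1 and the build mm10 are named per the submitters' processing notes, and the annotation and strand setting are not given in the sources used here. Of 23420 entries, 3340 had no count, and 27 had names turned into dates (0.214% of counts, kept as unidentified).

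The analysis used edgeR 4.0.16 under R 4.3.3: filterByExpr on the 8 groups (16607 genes), TMM factors, 1 coefficient per group and a robust quasi-likelihood fit. Differences for Cirbp and Rbm3 are contrasts of this fit with their SE and no test. For other genes a two-sided quasi-likelihood F-test was used, with Benjamini-Hochberg adjustment over the 16607 genes and a threshold of 0.05. The fit's common biological coefficient of variation came to 0.0991. Log2 CPM per library used a prior count of 2. The fit was tested on simulated counts.

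The members, the gene lists and the rule for named genes were chosen with earlier results of these data known. The rule names the pair, up to 8 called genes per list and comparison, the 6 most and 3 least alike genes per member, and a fixed set of genes (Hspa1a, Hspa1b, Hsph1, Dnajb1, Hspa8, Clk1, Clk4, Hnrnph1, Per2, Arntl, Clock, Rbmx, Ybx1, Rtn3 and Ntrk2). Some genes that the rule takes are not reported here. Hnrnpg had no entry under that symbol in the table. Alternatives were RLE factors, no filter, DESeq2 1.42.0, limma 3.58.1 voom with library weights, a replicate block, only the groups compared, leaving out each library, and, chosen after seeing the data, a fit without 3 libraries with pituitary or cerebellar transcripts.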

Additional observations from a re-analysis of the deposited data

How the results depend on the processing

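All 30 differences of Cirbp and Rbm3 moved by less than the spread between libraries under RLE factors, no filter, DESeq2, voom, the replicate block and the fit without 3 libraries. So did the 24 of them that could be fitted on the groups compared only. Refits of all or most of the same counts can hardly move a difference by that much, so little is read from this. The noise difference of Cirbp in night ADX libraries stayed within that spread while going from -0.11 to 0.05 without the 3 libraries. The 288 values from leaving out 1 library also moved by less than the spread, but that outcome was nearly fixed in advance. Leaving out 1 of 3 libraries shifts a group mean by less than the spread between its libraries, so nothing is read from it. Several single differences were small against that spread and changed sign, as given beside them. The number of genes called for ADX against sham operation was 532 in the edgeR fit, 873 with DESeq2 and 932 with voom, and it ran from 304 (without night sham exposure ADX c) to 898 (without night noise ADX a) on leaving out 1 library. It was also moved by over 1.5 times without night noise ADX c, day sham exposure ADX a or night sham exposure sham-operated c. The counts for night against day (998) and noise against sham exposure (798) ranged from 698 to 1238 and from 618 to 1145. Differences near 0 changed sign: that of Hnrnph1 between night and day was 0.00061 with voom, 0.0051 without the 3 libraries and -0.0102 to 0.0055 on leaving out 1 library. That of Hspa1b ranged from -0.22 to 0.0688 on leaving out 1 library. The cause was not tested. Without the 3 libraries, 8 calls of named list genes no longer passed (Hspa8, Arntl, Tra2a, Hnrnpd, Rbm34 and Rbm12 at night, Hspa4l and Bhlhe41 with ADX), and the heat-shock count was 9.

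The letters a, b and c recur in every group, and whether they pair libraries was not settled. Deviations from the group means correlated between same-letter libraries of different groups from -0.581 to 0.642 over 84 pairs (median 0.0052, 26 of them over 0.1). Between libraries of other letters and groups they ran from -0.619 to 0.537 over 168 pairs (median 0.0069, 55 of them over 0.1). Of 24 libraries, 11 correlated best with their own letter. These values show no clear pairing and cannot exclude one. With the letter as a replicate block, 988 genes were called for night against day, 773 for noise and 488 for ADX. The averaged night differences were -0.44 for Cirbp and -0.55 for Rbm3 with that block, and of the named list genes the 1 call lost was Hspa4l with ADX.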
